A study of Mus musculus with 6 samples.

Results

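The genes described here encode enzymes that crosslink the extracellular matrix: the lysyl oxidase Lox, its relatives Loxl1, Loxl2, Loxl3 and Loxl4, and the transglutaminase Tgm2. They were taken by gene name from a table of 54532 genes measured by RNA-seq in mouse primary lung fibroblasts, and all 6 were found. Of the 6 libraries 3 are titled calumenin KD (KD1, KD2 and KD3); Calu encodes calumenin, a calcium-binding protein of the secretory pathway. These were set against 3 libraries titled NC (NC1, NC2 and NC3). The descriptions of the same libraries call the groups knockout and wild type, the labels do not spell out NC, and they state neither how Calu was targeted nor the age or strain of the mice. Whether replicates came from different cultures is likewise unstated, and the p-values below then reflect only library-to-library spread, which may be technical.

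Lysyl oxidases are secreted copper enzymes that oxidise lysine side chains in collagen and elastin, and the aldehydes they leave behind condense into the covalent links that stiffen a matrix. Lox and Loxl1 are made as pro-enzymes and share a short, pro-region-bearing architecture, whereas Loxl2, Loxl3 and Loxl4 carry scavenger receptor cysteine-rich domains in front of the catalytic domain. Tgm2 uses a different chemistry: it joins glutamine to lysine side chains, both inside cells and at the cell surface, where it binds fibronectin and integrins. In lung fibroblasts these enzymes are studied for their part in scarring.

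For the 4 lysyl oxidase-like genes the stretch that encodes the copper-binding motif is shown. It lets a reader see how far these related genes can be told apart by their bases. The search pattern fixed the places of the histidines, so these are the same by choice, while bases between them differ. Sequences are from the GENCODE M21 transcripts (GRCm38), 5′ to 3′ on the coding strand. Capitals mark the codons of all histidines in the motif, whether or not each binds copper.
Loxl1: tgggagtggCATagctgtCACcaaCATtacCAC
Loxl2: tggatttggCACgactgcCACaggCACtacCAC
Loxl3: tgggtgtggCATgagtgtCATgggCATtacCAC
Loxl4: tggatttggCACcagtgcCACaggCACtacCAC
Each stretch of 33 bases crossed an exon junction in the coding sequence. It joined exons 3 and 4 of the Loxl1 transcript on the minus strand (chr9:58294359-58294381 and chr9:58293720-58293729) and exons 11 and 12 of the Loxl4 transcript on the minus strand (chr19:42599877-42599899 and chr19:42598807-42598816). It joined exons 10 and 11 of the Loxl2 transcript on the plus strand (chr14:69682316-69682338 and chr14:69689028-69689037) and exons 10 and 11 of the Loxl3 transcript on the plus strand (chr6:83049995-83050017 and chr6:83050116-83050125). Loxl2 and Loxl4 differed at 2 of the 33 bases, and the other 5 pairs at 8 to 12. Part of this likeness was set by the search pattern. For Tgm2, the stretch with the codon of the catalytic cysteine in capitals lay in exon 6 on the minus strand (chr2:158131350-158131367).
Tgm2: gggcagTGCtgggtgttt

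Across whole transcripts, words of 31 bases were almost never shared between these genes: Lox and Loxl1 had 2 in common and the other members none. Loxl2 was different with respect to the rest of the genome. Of its 5358 words 43.3% also occurred in the unprocessed pseudogene Gm21451, on the same chromosome at 69390854 to 69480287, and 46.4% occurred in a transcript of some other gene. Gm21451 was given 0 or 1 read per library, and the sources used here do not say how reads matching several places were counted. Loxl3 shared 11.6% of its exonic bases with Htra2 and Tgm2 shared 8.03% with Rprd1b, both expressed from the opposite strand, and 13.7% with Gm20412, which had no read, and without a stated strand setting reads from those bases cannot be assigned to one gene.

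Calu itself, at bases 29348069 to 29377110 of chromosome 6, plus strand (ENSMUSG00000029767), had 14.6, 12.6 and 13.1 FPKM (fragments per kilobase of gene length, scaled to library depth, the unit the authors deposited) in KD1, KD2 and KD3, against 220, 227 and 225 FPKM in NC1, NC2 and NC3. The means were 13.4 ± 1.07 FPKM in KD and 224 ± 3.43 FPKM in NC (SD, n = 3 each), a log2 difference of -3.96 (SE 0.07, limma adjusted p = 1.28e-06), and the groups lay far apart. The libraries held 15907164 to 18312888 recovered reads, and 3 reads, taken as the limit of detection, correspond to 0.164 to 0.189 CPM, the read count scaled to library depth. KD1 stood apart from KD2 and KD3: chi-square over its degrees of freedom, comparing read counts of replicates, was 17.5 and 29.1 for the pairs with KD1, 4.47 for KD2 with KD3 and 2.31 to 3.19 for NC pairs. Mitochondrial genes took 2.56% of reads in KD1 and 1.596% to 1.97% in the other 5 libraries. Of 9 fibroblast markers 6 were above 1 FPKM on average, including Col1a1, Col1a2, Pdgfra and Vim, but Lum had no read, Dcn 0 in KD and 3 in NC, and Thy1 16 in KD and 18 in NC, so these defining markers were absent or nearly so. Of the 6 tested, Col1a1 and Pdgfra were higher and Col3a1 and Pdgfrb lower in KD. The summed level of that list was 1322 to 1363 FPKM in KD and 1198 to 1248 FPKM in NC. The other lists summed to 0.154 to 0.942 FPKM in KD and 0.439 to 0.544 FPKM in NC for 6 epithelial markers, 0.128 to 0.183 FPKM in KD and 0.148 to 0.196 FPKM in NC for 5 endothelial markers, 3.38 to 5.01 FPKM in KD and 4.89 to 5.75 FPKM in NC for 6 leukocyte markers, 5.37 to 6.37 FPKM in KD and 6.31 to 8.001 FPKM in NC for 5 smooth muscle markers, and 10.4 to 14.3 FPKM in KD and 13.7 to 14.8 FPKM in NC for 4 mesothelial markers. Msln, at 12.4 ± 1.89 FPKM in KD and 14.2 ± 0.54 FPKM in NC, made up nearly all of the mesothelial sum. Des, at 5.69 ± 0.47 FPKM in KD and 6.67 ± 0.75 FPKM in NC, made up most of the smooth muscle sum. Acta2 had 6 reads in KD and 3 in NC, and Tagln 6 in KD and 18 in NC. Sftpc and Adgre1 had no read in any library, and no tested marker of these 5 lists passed the test.

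Loxl1 and Loxl4 rose and Loxl2 fell in KD cells, while Loxl3 and Tgm2 did not pass the test and Lox was barely detected in either group. Loxl1 was the most abundant member in every library and had the largest difference of the 5 tested, 1.86-fold higher in KD. Values are FPKM, so levels can be compared between genes, and the test was limma on log2(FPKM + 1) with p adjusted over the 12299 genes that averaged 1 FPKM or more. Of the 6 members 5 reached that level, 2 passed an adjusted p of 0.05 as higher in KD and 1 as lower, against 10.9% higher and 13.6% lower (24.5% in all) of the genes tested. As RNA came from whole cultures, fewer expressing cells and less RNA per cell cannot be told apart.

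**Figure D1:**
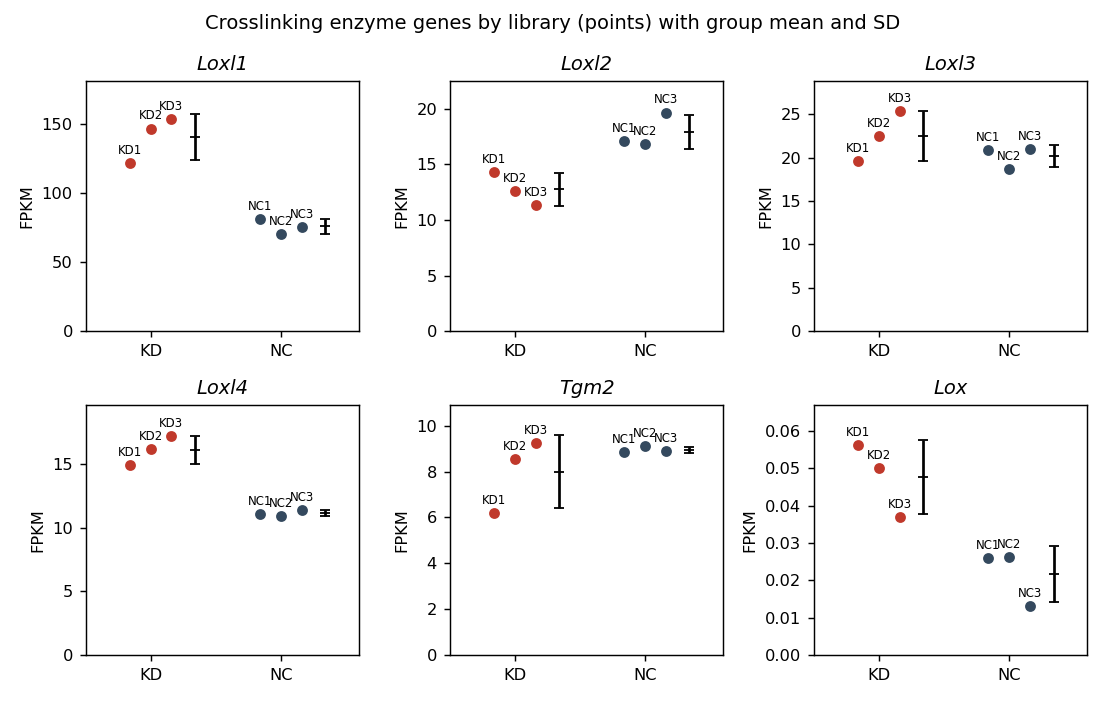
FPKM of the 6 crosslinking enzyme genes in each library (points), KD left and NC right, with the group mean and SD (n = 3 each) as a black bar; each panel has its own axis from 0. KD points lie above all NC points for Loxl1 and Loxl4 and below them for Loxl2, the groups overlap for Loxl3 and Tgm2, and Lox reaches at most 0.0562 FPKM.

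Loxl1 encodes a lysyl oxidase known for its role in elastic fibre upkeep. The gene occupies bases 58287738 to 58313186 of chromosome 9, minus strand (ENSMUSG00000032334, mm10). It had 122, 147 and 154 FPKM in KD1, KD2 and KD3, against 81.1, 70.8 and 75.9 FPKM in NC1, NC2 and NC3. All KD libraries were above all NC libraries, and KD1 was the lowest of its group. Groups that did not overlap, in either direction, were found for 44.2% of all genes tested. The means were 141 ± 16.7 FPKM in KD and 75.9 ± 5.14 FPKM in NC (SD, n = 3 each), and the difference on the log2(FPKM + 1) scale was 0.88 (SE 0.10, limma adjusted p = 0.0018). Of the genes tested, 3.75% had a larger absolute difference. In KD the level of Loxl1 was above 97.95% of tested genes and in NC above 95.05%, resting on 24043 reads in KD and 11970 in NC, reads per gene being recovered from the FPKM values.

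Loxl4 is among the scavenger receptor domain members of the family. It occupies bases 42593982 to 42612813 of chromosome 19, minus strand (ENSMUSG00000025185), overlaps no other annotated exon and shared no 31-base word with another gene. Its values were 15.0, 16.2 and 17.2 FPKM in KD1, KD2 and KD3, against 11.1, 10.9 and 11.4 FPKM in NC1, NC2 and NC3. The groups did not overlap, and the NC libraries lay closer together than the KD libraries. The means were 16.1 ± 1.13 FPKM in KD and 11.1 ± 0.24 FPKM in NC (SD, n = 3 each), 1.45-fold higher in KD, with a log2 difference of 0.50 (SE 0.07, limma adjusted p = 0.00327).

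Loxl2, which crosslinks type IV collagen of basement membranes, moved the other way. It occupies bases 69609068 to 69695834 of chromosome 14, plus strand (ENSMUSG00000034205), and had 14.3, 12.6 and 11.3 FPKM in KD1, KD2 and KD3, against 17.1, 16.9 and 19.7 FPKM in NC1, NC2 and NC3. All KD libraries were below all NC libraries. The means were 12.8 ± 1.49 FPKM in KD and 17.9 ± 1.55 FPKM in NC (SD, n = 3 each), so Loxl2 fell by 28.7% in KD, and the log2 difference was -0.46 (SE 0.10, limma adjusted p = 0.0181). This call was the least stable of the 3. It ended without NC1 (log2 difference -0.49, adjusted p = 0.0554), without NC3 (-0.39, adjusted p = 0.0665) and without KD2 (-0.45, adjusted p = 0.0669), and when the median difference of each chromosome was removed (-0.27, adjusted p = 0.102), the median over tested genes of chromosome 14 being -0.19.

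The sequence that Loxl2 shares with other genes, most of it with Gm21451, also bears on its level. Suppose no read had been counted from the 46.4% of its words that occur in any other gene. The level per unshared length would then be 23.8 ± 2.79 FPKM in KD and 33.3 ± 2.88 FPKM in NC (SD, n = 3 each). This scaling leaves the ratio between the groups at 0.713. That ratio stays the same because both groups were divided by one length. The place of Loxl2 in the order of levels is therefore uncertain, and whether reads from Gm21451 entered the Loxl2 count was not tested.

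Loxl3, another member with scavenger receptor domains, occupies bases 83034173 to 83052562 of chromosome 6, plus strand (ENSMUSG00000000693), on the same chromosome as Calu. It had 19.6, 22.5 and 25.4 FPKM in KD1, KD2 and KD3, against 20.9, 18.7 and 21.1 FPKM in NC1, NC2 and NC3. KD1 lay within the NC range and the other 2 KD libraries lay above it. The means were 22.5 ± 2.90 FPKM in KD and 20.2 ± 1.29 FPKM in NC (SD, n = 3 each), and the log2 difference of 0.14 (SE 0.10) did not pass (limma adjusted p = 0.341). The median over tested genes of chromosome 6 was -0.22, and with chromosome medians removed the difference of Loxl3 was 0.37 and just passed (adjusted p = 0.0481). It also just passed without KD1 (0.24, adjusted p = 0.0493). Htra2, the protease gene that overlaps it on the other strand, had 12.7, 17.5 and 18.2 FPKM in KD1, KD2 and KD3, against 15.6, 16.7 and 17.9 FPKM in NC1, NC2 and NC3, and the part of those reads in Loxl3 was not tested.

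Tgm2 occupies bases 158116402 to 158146436 of chromosome 2, minus strand (ENSMUSG00000037820). It had 6.19, 8.54 and 9.22 FPKM in KD1, KD2 and KD3, against 8.84, 9.11 and 8.90 FPKM in NC1, NC2 and NC3. KD1 and KD2 were below all NC libraries and KD3 was above them, so the KD values were more spread out than the NC values. The means were 7.99 ± 1.59 FPKM in KD and 8.95 ± 0.14 FPKM in NC (SD, n = 3 each), and the log2 difference of -0.16 (SE 0.13) did not pass (limma adjusted p = 0.4). Without KD1 the difference was -0.010 (adjusted p = 0.888). Rprd1b, which shares bases with it, had 14.3, 14.2 and 13.1 FPKM in KD1, KD2 and KD3, against 12.2, 11.3 and 11.3 FPKM in NC1, NC2 and NC3, and the part of those reads in Tgm2 was not tested. With a trend on GC content and length removed it was -0.24 and passed (adjusted p = 0.0404). The GC content of the Tgm2 transcript, 57.1%, was above that of 88.6% of tested genes. The deviation of a library from the mean of all 6 ran against GC content across genes in KD1 (Spearman rho -0.41) and with it in KD2 (0.34) and KD3 (0.49). In NC1, NC2 and NC3 that rho was -0.18, -0.24 and -0.04, so the NC libraries differed from KD2 and KD3 in this too. Loxl1, at 61.0% GC above 97.9% of tested genes, was likewise lowest in KD1 within its group, and with the trend removed its difference was 0.79 (adjusted p = 9e-05). Loxl4, at 56.6% GC above 86.3% of tested genes, was lowest in KD1 as well. Its difference was 0.43 with the trend removed (limma adjusted p = 0.000618), against 0.50 as reported.

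Lox, the founding member, at bases 52516069 to 52529867 of chromosome 18, minus strand (ENSMUSG00000024529), was near the limit of detection. It had 5, 4 and 3 reads in KD1, KD2 and KD3, against 2, 2 and 1 in NC1, NC2 and NC3, or 0.0478 ± 0.0099 FPKM in KD and 0.0217 ± 0.0075 FPKM in NC (SD, n = 3 each). The summed reads, 12 in KD and 5 in NC, gave a ratio of 2.27 after depth, with an exact 95% interval of 0.744 to 8.22 that covers counting error only. Lox was too low to be tested, and without the filter on low genes limma gave an adjusted p of 0.364. A difference in Lox was not detectable at this depth.

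The order of levels was Loxl1, Loxl3, Loxl4, Loxl2, Tgm2 and Lox in KD, and no neighbours in that order overlapped between libraries. In NC the order was Loxl1, Loxl3, Loxl2, Loxl4, Tgm2 and Lox, and there Loxl3 (18.7 to 21.1 FPKM) and Loxl2 (16.9 to 19.7 FPKM) overlapped. Both orders use the full gene length, and the place of Loxl2 changes if the bases shared with other genes are left out.

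Loxl1 made up more of the lysyl oxidase RNA in KD than in NC, and Loxl2 less; these shares are given as values, without a test of their own. The 5 lysyl oxidase genes summed to 192 ± 19.1 FPKM in KD and 125 ± 6.85 FPKM in NC (SD, n = 3 each). Loxl1 supplied 71.4%, 74.1% and 74.0% of that sum in KD1, KD2 and KD3, against 62.3%, 60.3% and 59.3% in NC1, NC2 and NC3. Loxl2 supplied 8.38%, 6.35% and 5.46% in KD1, KD2 and KD3, against 13.2%, 14.4% and 15.4% in NC1, NC2 and NC3. The share of Loxl3 was 11.7% ± 0.47 in KD and 16.1% ± 0.26 in NC (SD, n = 3 each), and that of Loxl4 was 8.41% ± 0.31 in KD and 8.91% ± 0.41 in NC. The shares of Loxl1, Loxl2 and Loxl3 did not overlap between the groups and that of Loxl4 did, so the lower share of Loxl3 stood beside an FPKM level that did not pass the test. The ratio of Loxl1 to Loxl2 was 8.52, 11.7 and 13.6 in KD1, KD2 and KD3, against 4.73, 4.20 and 3.86 in NC1, NC2 and NC3. These shares and ratios use the full length of Loxl2. Per unshared length the ratio was 4.57, 6.26 and 7.27 in KD1, KD2 and KD3, against 2.54, 2.25 and 2.07 in NC1, NC2 and NC3. The share of Loxl2 was then 11.8% ± 2.48 in KD and 23.7% ± 1.62 in NC (SD, n = 3 each), and that of Loxl1 was 69.1% ± 2.26 in KD and 54.0% ± 1.82 in NC.

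**Figure D2:**
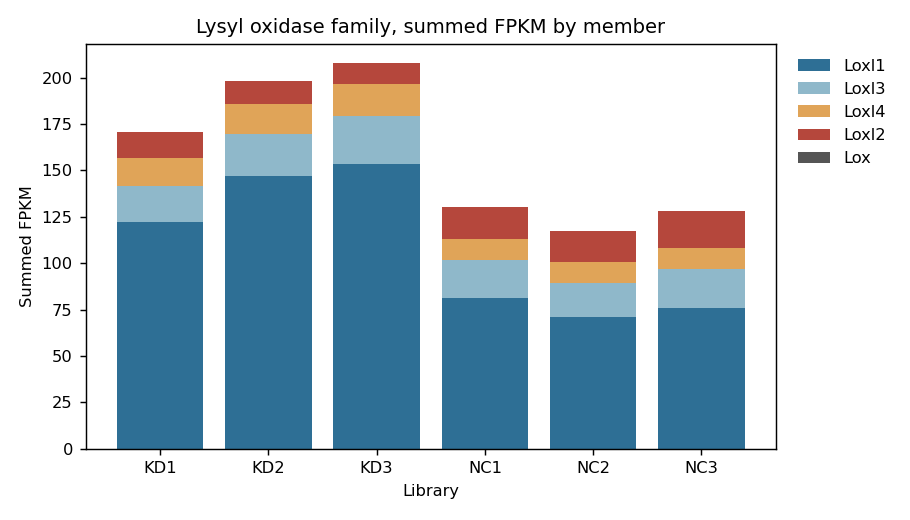
Summed FPKM of the lysyl oxidase genes in each library, on their full gene lengths, KD libraries left and NC libraries right, with a coloured segment for each gene; Lox is too low to be visible. KD totals run from 171 to 208 FPKM and NC totals from 117 to 130 FPKM, and the Loxl1 segment is taller in each KD library than in any NC library while the Loxl2 segment is shorter.

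The calls for Loxl1 and Loxl4 held under all 20 alternatives run, with log2 differences of 0.79 to 0.98 and 0.39 to 0.55. Among these, median-of-ratios scaling could not move a call, because its factor was the same, 1.0037, in every library. Loxl2 kept its direction under all 20 and its call under 16. Tgm2 was below 0 and Loxl3 above 0 under all 20, with 1 and 2 of those passing.

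**Figure D3:**
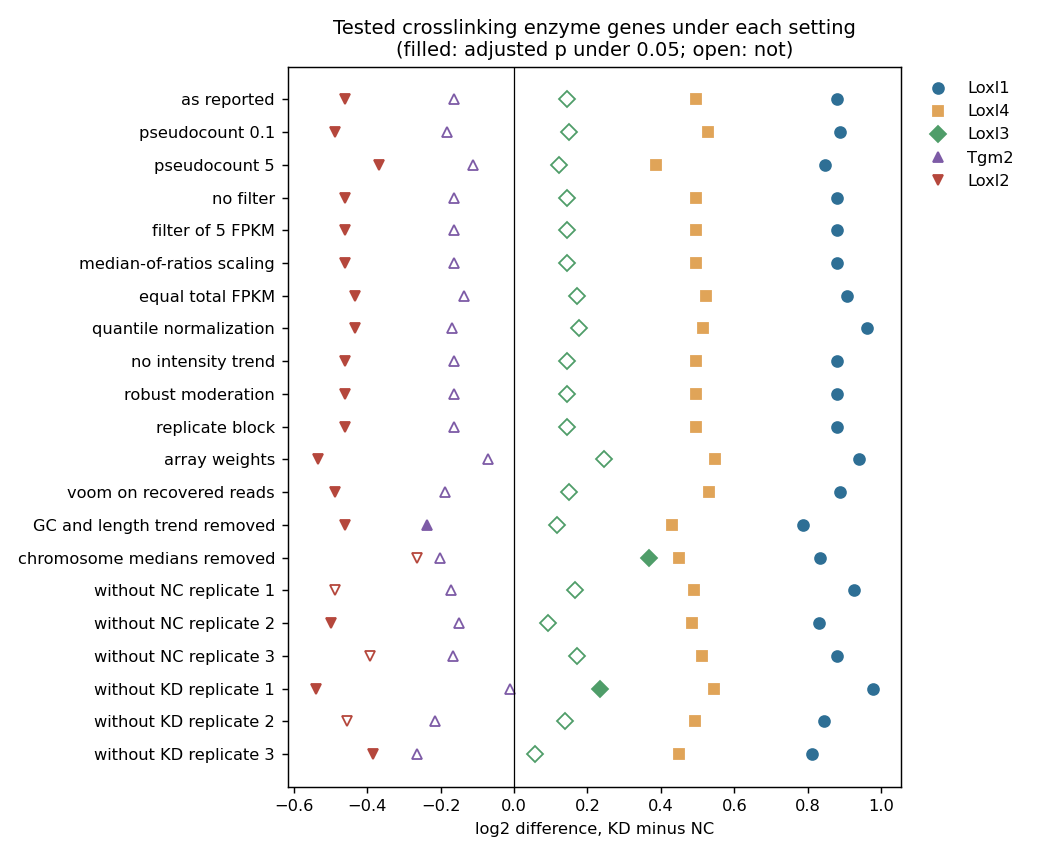
The log2 difference, KD minus NC, of each tested crosslinking enzyme gene (symbol and colour) under each processing setting (rows), filled where the limma adjusted p was under 0.05 and open where it was not. Loxl1 and Loxl4 are filled in every row, Loxl2 is open in 4 alternatives, and Loxl3 and Tgm2 are open in all but 2 and 1.

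Genes listed for the processing and anchoring of lysyl oxidases moved in both directions. Of 11 genes on that list 6 averaged at least 1 FPKM, and those 6 were called higher, but Postn and Fbln5 were near 1 FPKM in NC and missed that level through their low KD values, so the 6 do not stand for the list. With no filter on low genes, 10 of the 11 entered the limma fit, 4 were higher and 2 lower, beside 3.51% higher and 5.37% lower over all 28280 genes in that fit. The median log2 difference was then 0.45, beside -0.00094 over those genes. The collagen-binding proteoglycan gene Fmod had 17.6, 18.1 and 19.4 FPKM in KD1, KD2 and KD3, against 0.979, 1.123 and 1.39 FPKM in NC1, NC2 and NC3, a log2 difference of 3.16 (SE 0.09, limma adjusted p = 7.13e-06). Fn1, for the fibronectin on which pro-enzyme processing takes place, averaged 295 ± 12.98 FPKM in KD and 173 ± 3.21 FPKM in NC (SD, n = 3 each; limma adjusted p = 0.000273). Bmp1, for the proteinase that cleaves pro-Lox and procollagen, averaged 8.14 ± 1.11 FPKM in KD and 5.74 ± 0.14 FPKM in NC (limma adjusted p = 0.0208). The genes for enhancers of procollagen cleavage by that proteinase were higher too. Pcolce averaged 142 ± 23.1 FPKM in KD and 99.1 ± 5.35 FPKM in NC (limma adjusted p = 0.028). Pcolce2 averaged 6.62 ± 0.59 FPKM in KD and 4.40 ± 0.16 FPKM in NC (limma adjusted p = 0.00556). Efemp2, for the fibulin that tethers Lox to elastin precursors, averaged 41.4 ± 2.71 FPKM in KD and 29.6 ± 1.49 FPKM in NC (limma adjusted p = 0.0048); Bmp1 and Efemp2 complete the 6 and were named after their values were seen. Bmp1 and Pcolce lost their calls without NC1, NC2, NC3, KD2 or KD3, with limma adjusted p of 0.0507 to 0.0809 for Bmp1 and 0.055 to 0.102 for Pcolce, and also with no filter on low genes (0.0533 and 0.0752).

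Postn, for a matricellular protein that recruits Bmp1, averaged 0.0898 ± 0.03 FPKM in KD and 1.10 ± 0.13 FPKM in NC (SD, n = 3 each). Fbln5, for a fibulin that binds Loxl1, averaged 0.394 ± 0.03 FPKM in KD and 1.13 ± 0.14 FPKM in NC. In both genes all KD libraries were below all NC libraries. In the fit with no filter the log2 difference was -0.94 for Postn (limma adjusted p = 0.00252) and -0.61 for Fbln5 (limma adjusted p = 0.0167). Tll1 had no read in any library.

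Among the substrates the chains were divided. Of 8 tested genes 2 rose, 2 fell and 4 did not pass, with a median log2 difference of 0.08, where 10.9% of all genes tested were higher and 13.6% lower. The fibrillar collagen chain gene Col1a1 averaged 284 ± 16.2 FPKM in KD and 149 ± 2.94 FPKM in NC (SD, n = 3 each; limma adjusted p = 0.000193), and Col5a1, whose chain joins the same fibrils, had 69.4 ± 8.40 FPKM in KD and 51.8 ± 1.57 FPKM in NC (limma adjusted p = 0.022). Col1a2, for the other type I chain, did not pass, at 450 ± 28.4 FPKM in KD and 403 ± 8.92 FPKM in NC (limma adjusted p = 0.122). Col3a1 averaged 10.9 ± 0.59 FPKM in KD and 24.6 ± 0.93 FPKM in NC (limma adjusted p = 0.000111), and Col5a2 had 30.4 ± 1.38 FPKM in KD and 36.5 ± 1.24 FPKM in NC (limma adjusted p = 0.0216). The type IV chain genes did not pass: Col4a1 had 102 ± 14.2 FPKM in KD and 102 ± 2.09 FPKM in NC (limma adjusted p = 0.972), and Col4a2 had 72.2 ± 14.7 FPKM in KD and 62.4 ± 2.82 FPKM in NC (limma adjusted p = 0.386). Eln, for elastin, had no read in any library. Dropping KD1 gave 4 higher and 2 lower, where 2572 of all 12299 genes tested were higher and 2648 lower. Dropping KD2 or any single NC library gave 1 higher and 1 lower, beside 590 to 651 and 923 to 983 over all genes. In those fits Col5a1 and Col5a2 missed the threshold (limma adjusted p of 0.0622 to 0.1). Col5a1 also missed it with no filter (0.0539) and Col5a2 with chromosome medians removed (0.383).

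Of 7 genes of lysyl hydroxylation, the step that prepares collagen lysines for crosslinking, 2 rose and 5 did not pass, with a median log2 difference of 0.17. Over all genes tested 24.5% were called, so this count is near the background. Fkbp10, for the prolyl isomerase that aids hydroxylation of telopeptide lysines, averaged 9.70 ± 1.38 FPKM in KD and 5.35 ± 0.29 FPKM in NC (SD, n = 3 each; limma adjusted p = 0.00379), and Ppib, for cyclophilin B, averaged 35.9 ± 3.20 FPKM in KD and 25.7 ± 0.42 FPKM in NC (limma adjusted p = 0.00628). The hydroxylase gene Plod2 had 19.5 ± 3.59 FPKM in KD and 20.3 ± 0.81 FPKM in NC (limma adjusted p = 0.711). Without KD1, 4 genes of this list were higher and 1 was lower, where 2572 of all 12299 genes tested were higher and 2648 lower.

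No gene of copper supply passed, where 10.9% of all genes tested were higher and 13.6% lower. Of 5 genes 4 were tested, too few for 0 calls to stand apart from those shares. Their median log2 difference was -0.0028, and limma called 0 higher and 0 lower. At an unadjusted p under 0.05 it had 0 higher and 1 lower, and limma's voom on recovered reads had 0 and 1, with 0 past the adjusted threshold. Atox1, the chaperone that hands copper to the secretory pathway pump, averaged 86.1 ± 2.42 FPKM in KD and 97.4 ± 4.52 FPKM in NC (SD, n = 3 each; limma adjusted p = 0.0664), and passed as lower without KD1 (adjusted p = 0.0447), with the GC and length trend removed (0.0193) and with chromosome medians removed (0.0345). Slc31a1, for the copper importer, averaged 16.4 ± 1.02 FPKM in KD and 17.2 ± 0.17 FPKM in NC (limma adjusted p = 0.489). Atp7a, for that pump, averaged 3.80 ± 0.50 FPKM in KD and 3.59 ± 0.19 FPKM in NC (limma adjusted p = 0.689). Atp7b, the related pump gene, had 15 reads in KD and 1 in NC and was not tested.

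Genes for partners of Tgm2, among them cell-surface binding proteins and proteins such as thioredoxin that act on Tgm2, were divided. Of 8 genes, all tested, 3 rose and 2 fell, where 10.9% of all genes tested were higher and 13.6% lower. Besides Fn1, the syndecan gene Sdc4 rose, with 44.4 ± 4.25 FPKM in KD and 31.03 ± 0.37 FPKM in NC (SD, n = 3 each; limma adjusted p = 0.00533), and so did the integrin gene Itgb1, with 94.5 ± 8.59 FPKM in KD and 78.8 ± 1.11 FPKM in NC (limma adjusted p = 0.0458), named after its values were seen. Itga5, for the partner chain of the fibronectin receptor, fell to 24.2 ± 2.59 FPKM in KD, against 34.9 ± 1.16 FPKM in NC (limma adjusted p = 0.00716). Txn1, for thioredoxin, a protein that can reduce and so activate Tgm2, had 248 ± 27.4 FPKM in KD and 306 ± 2.74 FPKM in NC (limma adjusted p = 0.0399). Without NC1, NC2, NC3 or KD2 the calls for Itgb1 and Txn1 ended, with adjusted p of 0.0794 to 0.145. Itgb1 also missed the threshold with chromosome medians removed (0.436), and both missed it with no filter (0.0933 for Itgb1 and 0.122 for Txn1), with no intensity trend in the variance (0.0609 and 0.0512) and with the replicate block (0.0749 and 0.0513). Txn1 missed it with array weights as well (0.0537).

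Other crosslinkers were low or did not change past the threshold. All 8 other transglutaminase genes averaged below 1 FPKM and 5 of them had fewer than 10 reads over the 6 libraries. The highest was Tgm1, at 0.306 ± 0.07 FPKM in KD and 0.304 ± 0.05 FPKM in NC (SD, n = 3 each), followed by Tgm4, at 0.109 ± 0.04 FPKM in KD and 0.0874 ± 0.03 FPKM in NC. Qsox1, a secreted sulfhydryl oxidase gene, averaged 12.5 ± 1.45 FPKM in KD and 10.8 ± 0.17 FPKM in NC (limma adjusted p = 0.177) and passed as higher without KD1 (adjusted p = 0.00499). Aoc3, an amine oxidase gene, had 0.225 ± 0.03 FPKM in KD and 0.181 ± 0.02 FPKM in NC and was not tested.

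Over all these lists, 50 genes without the crosslinking enzymes themselves, 33 were tested, 12 rose and 4 fell, beside 10.9% higher and 13.6% lower over all genes tested. With no filter 48 were in the fit, 8 were higher and 5 lower, beside 3.51% and 5.37% over all genes in it. The lists were drawn up with earlier results of these libraries known, so they are no independent evidence of direction.

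**Figure D4:**
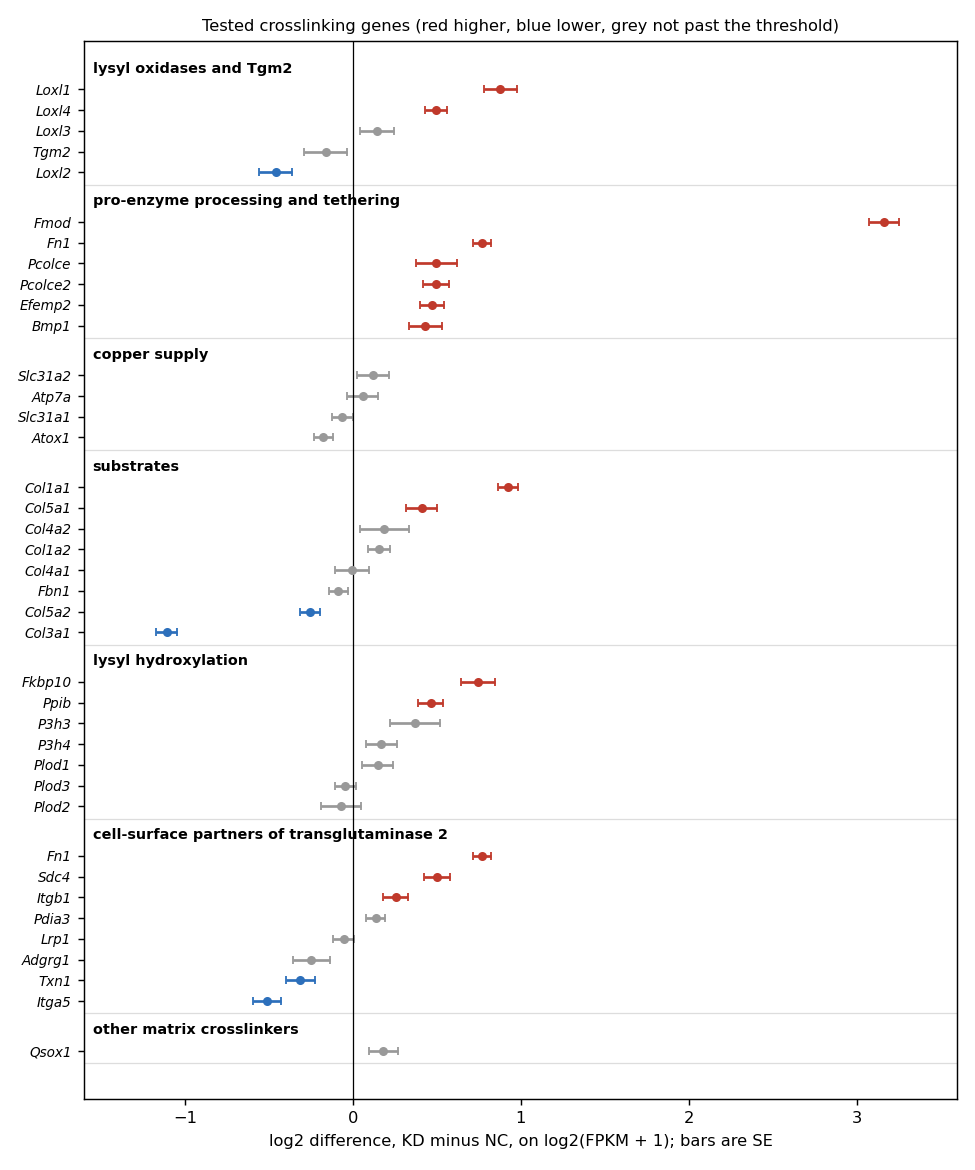
The log2 difference, KD minus NC, with its SE for each tested gene, grouped by role from the enzymes (top) to other matrix crosslinkers (bottom), in red where higher, blue where lower and grey where the limma adjusted p was not under 0.05; Fn1 appears in 2 groups. The 6 genes shown for pro-enzyme processing and tethering lie right of 0, from 0.43 for Bmp1 to 3.16 for Fmod, while Postn and Fbln5, under the filter, are not drawn, and the copper supply genes lie close to 0.

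Genes with the most similar pattern to each tested member were found by Pearson correlation of log2(FPKM + 1) over the 6 libraries among 10297 other protein-coding genes. With 2 groups of 3 such values mostly follow the group difference and what the libraries share, and they are given as a description. Loxl1 was closest to Plxna2, Pigt and Pias3 (r of 0.999, 0.998 and 0.998), and 556 genes had an r over 0.95 with it. Loxl4 was closest to Mtss1l, Rpl7l1 and Slc9a5 (r of 0.999, 0.999 and 0.998), with 587 genes over 0.95. Loxl2 was closest to the ERK phosphatase gene Dusp6, with an r of 0.991, then Cplane1 and Arntl2, both at 0.988, and 147 genes exceeded 0.95. Dusp6 averaged 9.06 ± 0.59 FPKM in KD and 11.9 ± 0.64 FPKM in NC (SD, n = 3 each; limma adjusted p = 0.0123). Loxl3 was closest to Zfp212, Nsmf and S100a16 (r of 0.995, 0.993 and 0.993). Tgm2 was closest to Dgkz, Nfe2l1 and Cactin (r of 0.998, 0.996 and 0.995).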

How the data were processed

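Total RNA of 6 libraries was read in paired ends on a NovaSeq and mapped with HISAT2 (2.0.5), per the labels' protocols. Per the submitters' processing notes, reads were placed on mm10. The sources used here name no read counter, strand setting or annotation release. The authors deposited an FPKM value per gene and library, with gene lengths and positions, per the file headers.

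Multiplied by gene length, 100% of FPKM values were whole multiples of a constant per library (tolerance 0.01 read), which gave reads per gene. The library size implied by that constant was 0.987 (NC1) to 1.02 (KD2) times the recovered reads. The median-of-ratios factor was 1.0037 in every library. The deposited values were thus already on one median-of-ratios scale and not scaled by total reads alone. Differences were tested with limma (version 3.58.1, R version 4.3.3), with a group term and a variance trend on mean level, on the log2(FPKM + 1) scale, which understates the change of low genes. Benjamini-Hochberg adjusted p-values under 0.05 were called, over genes averaging 1 FPKM or more. The fits were tested on simulated data with the same dispersion, 0.01, for every gene and library. No simulated library stood apart as KD1 did, so that test does not cover such a library. Named genes were the members, Calu, up to 4 called genes per list by absolute difference (the 2 most abundant where none was called) and the 3 protein-coding genes closest in pattern to each tested member. Any other gene was named after its values were seen. Members and lists were chosen with earlier results of these data known. Same-numbered libraries were not treated as pairs. Alternatives changed the pseudocount (0.1 and 5), filter, scaling or variance model, added a block or array weights, used voom, removed a GC and length trend (splines of 5 degrees of freedom) or chromosome medians, or left out a library. Sequences and shared words came from GENCODE M21 transcripts.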

Additional observations from a re-analysis of the deposited data

How the results depend on the processing

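Of 20 alternatives none turned the direction of Loxl1, Loxl2, Loxl3, Loxl4 or Tgm2. Median-of-ratios scaling could not do so, as its factor was 1.0037 in every library. Loxl2 did not pass with chromosome medians removed (-0.27), Loxl3 passed there (0.37), and Tgm2 passed with the GC and length trend removed (-0.24). With single libraries left out, the log2 difference was 0.81 to 0.98 for Loxl1, 0.45 to 0.54 for Loxl4, -0.54 to -0.38 for Loxl2, 0.056 to 0.24 for Loxl3 and -0.26 to -0.010 for Tgm2. Over all genes the main counts were 1344 higher and 1672 lower. They became 2386 higher and 2219 lower with the GC and length trend removed. They were 590 to 2572 higher and 923 to 2648 lower with single libraries left out, the most without KD1. Over the crosslinking lists 8 to 17 genes were higher and 2 to 6 lower with single libraries left out, against 12 and 4. Slc31a1 turned to 0.029 with the GC and length trend removed, not past the threshold in either fit. The causes were not tested. With the replicate block, 1050 genes were higher and 1383 lower, and the calls for Loxl1, Loxl2 and Loxl4 held (adjusted p of 0.0103, 0.0462 and 0.0123), while Itgb1 and Txn1 lost theirs (0.0749 and 0.0513). Deviations of same-numbered libraries correlated at 0.079, -0.043 and 0.154, and not every library correlated best with its own number. The level of Loxl2 per unshared length, and the shares and ratio made from it, were added after seeing the data. The planned edgeR fit on recovered reads was not run, since the deposited values are FPKM. Depth limits Lox, the other transglutaminases and the filtered list genes.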
